A study of Arabidopsis thaliana with 18 samples.

Results

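The genes described here are 10 Arabidopsis genes of cytokinin synthesis from the LONELY GUY (LOG) and ISOPENTENYLTRANSFERASE (IPT) families, each followed across the 6 groups of the study by the read counts of its lowest-numbered splice variant. They are LOG1, LOG2, LOG3, LOG4, LOG5, LOG7, LOG8, IPT3, IPT5 and IPT7, 10 of the 24532 genes in the count tables. Since the genes were picked with those counts in view, their levels and fold changes are given as a description: no p-value is given for them, and counts of members past a limit say where their values fell and support nothing. RNA was sequenced from leaf mesophyll protoplasts of Columbia-0 plants, either wild type (WT) or the double mutant nph4-1 arf19-1, which carries lesions in ARF7 (also called NPH4) and ARF19, a pair of auxin-responsive transcription factors. The protoplasts came from rosette leaves of 23-day-old plants and were sampled fresh (Day 0) or after 4 or 6 days of dark culture in alginate gel, with 3 libraries in each of the 6 groups. All cultured protoplasts, mutant and WT, stood in callus-inducing medium with 1 mg/L of the synthetic auxin 2,4-D and 176 µg/L of thidiazuron, a compound that acts as a cytokinin. The sample labels of the 3 Day 6 mutant libraries give yucasin, an inhibitor of auxin biosynthesis, as their treatment, whereas the study's methods do not mention it for these libraries. At Day 6 the mutant genotype and that labelled treatment cannot be told apart.

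Cytokinins are adenine-derived hormones that, together with auxin, drive plant cells to divide. IPT enzymes make the first committed intermediate, a cytokinin nucleotide, by joining an isoprenoid side chain to ATP or ADP. LOG enzymes act at the last step and release the active free base from the nucleotide. CKX oxidases destroy cytokinins, AHK receptors sense them, and the signal passes through AHP proteins to the type-B ARR transcription factors and to the type-A ARR genes that these switch on.

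The 7 LOG members form one gene family by structure. Each has 7 coding exons, of which the 5 inner ones are 98, 31, 100, 71 and 144 bases long in every member, while the first ranges from 105 to 123 bases and the last from 81 to 135. The bases that encode the glycine-rich signature shared by LOG enzymes begin in coding exon 4 of each member and run across an intron into the next exon. They are shown because they identify the family and show how far its members differ within this stretch. The sequences are spliced coding strand from the RefSeq TAIR10.1 genome, 5′ to 3′, and capitals mark the 18 of 27 bases that are the same in all 7 members.
LOG1: CCtGGtGGgTATGGgACacTtGAaGAg
LOG2: CCtGGtGGaTATGGgACatTtGAaGAg
LOG3: CCaGGtGGtTATGGaACacTtGAaGAa
LOG4: CCaGGtGGaTATGGaACacTtGAaGAg
LOG5: CCaGGtGGgTATGGaACacTgGAgGAg
LOG7: CCtGGtGGgTATGGtACgtTaGAaGAa
LOG8: CCtGGaGGtTATGGaACaaTgGAgGAg

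With the intron included, these stretches lie at chr2:12083381-12083510 (plus strand) in LOG1, chr2:15624686-15625535 (minus strand) in LOG3, chr5:1922928-1923060 (minus strand) in LOG7 and chr5:3856078-3856187 (plus strand) in LOG8. Over whole coding sequences, the 21 pairs of LOG members were 61.4% to 87.7% identical, and LOG3 and LOG4 were the closest pair at 87.7%. The longest run of bases shared without a mismatch by any pair was 41, between LOG3 and LOG4. The tables count uniquely mapped reads, so a read that lies wholly within that run would be counted for neither LOG3 nor LOG4. The read length is not given in the sources used here, so how many reads were lost in this way, if any, is not known. Of the IPT members, the 3 pairs were 55.4% to 61.3% identical, with at most 16 shared bases in a row, and each protein is encoded by a single exon.

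**Figure D1:**
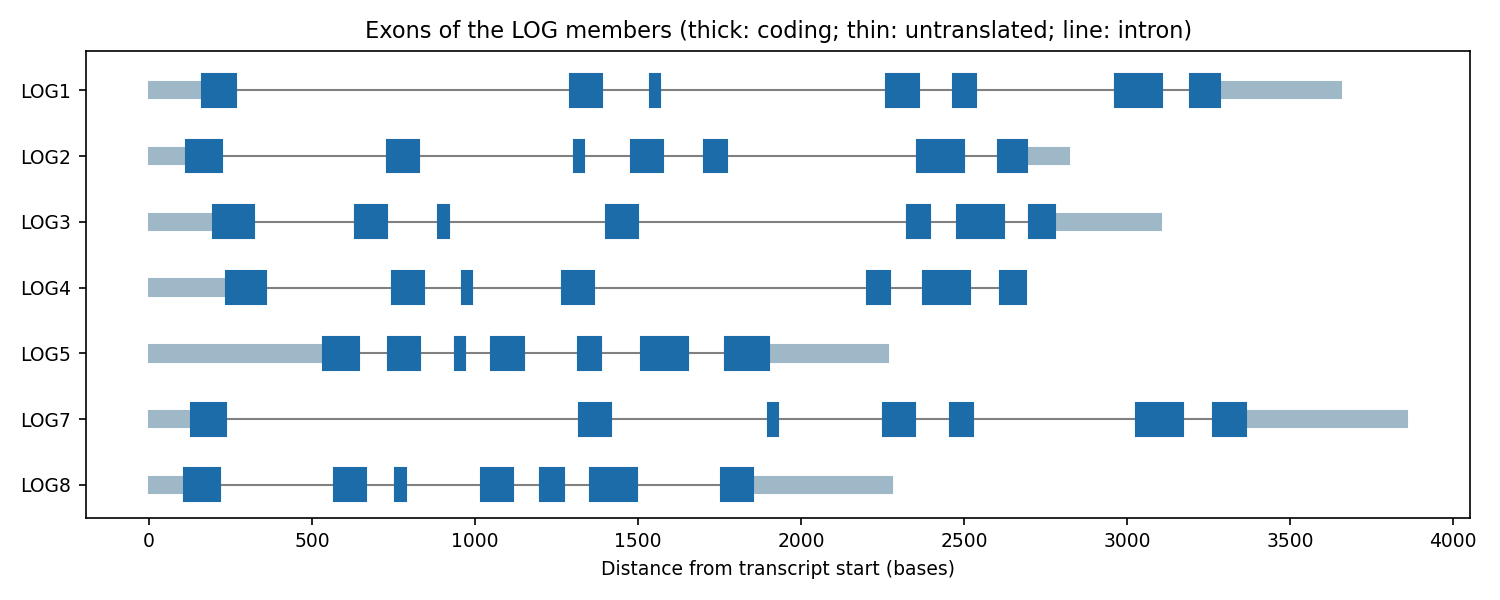
Exon maps of the lowest-numbered splice variant of the 7 LOG members in the RefSeq annotation, drawn to scale by distance from the transcript start in bases. Thick boxes are coding, thin boxes are untranslated and lines are introns; all 7 genes show the same succession of 7 coding exons, with introns of differing length.

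LOG3 and LOG4 also shared a short stretch just upstream of their genes. A search of the 250 bases before each gene start for the best ungapped match found a stretch of 22 bases, 20 of them shared, which ends 2 bases before the start of LOG3 and 36 bases before that of LOG4. It is shown because these 2 genes had more reads in cultured WT than in fresh WT protoplasts, as described below. No other pair of genes was searched, so how common such a match is was not measured, and a function of the stretch was not tested. Capitals mark the shared bases, and both stretches are on the minus strand, at chr2:15627035-15627056 and chr3:19815703-19815724.
LOG3: GAGCATGACGtGAAgACGCACT
LOG4: GAGCATGACGaGAAaACGCACT

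Auxin response factors such as ARF7 bind DNA at a core of TGTC, and TGTCTC and TGTCGG are longer binding sites that contain it. The 250 bases before LOG3 (chr2:15627033-15627282, minus strand) and before LOG1 (chr2:12080773-12081022, plus strand) are shown because these genes had the largest differences between genotypes. Capitals mark the TGTC core on either strand.
LOG3: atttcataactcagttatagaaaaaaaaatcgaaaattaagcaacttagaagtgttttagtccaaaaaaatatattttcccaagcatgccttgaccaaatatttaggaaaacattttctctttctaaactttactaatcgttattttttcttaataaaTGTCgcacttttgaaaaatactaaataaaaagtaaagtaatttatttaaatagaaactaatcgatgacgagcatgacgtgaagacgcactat
LOG1: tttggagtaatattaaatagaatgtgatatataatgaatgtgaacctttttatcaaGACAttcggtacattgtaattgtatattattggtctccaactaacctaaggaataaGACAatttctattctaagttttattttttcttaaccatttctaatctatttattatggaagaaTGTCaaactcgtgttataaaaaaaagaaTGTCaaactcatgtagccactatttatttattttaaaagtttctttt

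The core was present upstream of 9 of the 10 members (all but LOG7) and of 74.8% of the 27443 protein-coding genes of the nuclear chromosomes, searched on both strands over the same length. The longer TGTCTC, which contains the core, was present upstream of LOG8 and IPT5 and of 10.9% of all genes. TGTCGG, which also contains the core, was present upstream of none of the members and of 4.2% of all genes. The G-box CACGTG was present upstream of LOG4 and IPT5 and of 6.5% of all genes. Each window ends at the annotated gene start, which for LOG2 and LOG8 lies upstream of the start of the splice variant counted here. All these motif hits are matches of letters in one window and say nothing of binding.

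The 18 libraries held 3438524 to 12119944 mapped reads (median 6291177). Counts are given as reads or as CPM, the read count divided by library size and put on a common scale, after TMM scaling, a correction for differences in RNA composition, and changes as log2 fold changes with their standard error (SE). A change is called past the limits where its log2 fold change exceeds 2 in size and its false discovery rate (FDR, from edgeR's quasi-likelihood test with Benjamini-Hochberg adjustment) is below 0.01. In the mutant, ARF7 differed from WT by -1.86 ± 0.11 (log2, SE), -1.63 ± 0.12 and -1.15 ± 0.12 on Days 0, 4 and 6 (FDR 4.86e-10, 1.32e-08 and 1.38e-07). ARF19 differed by 0.32 ± 0.20 at Day 0 (FDR 0.289), and by -2.45 ± 0.17 and -3.07 ± 0.17 on Days 4 and 6 (FDR 2.88e-09 and 1.54e-11). Summed mesophyll markers stood at 989 to 1490 CPM in WT and 1310 to 3020 CPM in the mutant at Day 0. At Day 4 they stood at 200 to 410 CPM in WT and 244 to 333 CPM in the mutant. At Day 6 the genotypes did not overlap, at 370 to 551 CPM in WT and 182 to 303 CPM in the mutant. Scaling matters for the changes over time: the median change of all 25202 tested variants from Day 0 to Day 6 was 0.23 (log2) in WT and 0.20 in the mutant with TMM scaling, but 1.40 and 1.10 with library totals alone. From Day 0 to Day 4 the same medians were 0.23 and 0.18 with TMM scaling and 1.26 and 1.19 with totals. Between genotypes the medians lay within 0.04 of zero with TMM scaling, and at -0.08, -0.15 and -0.43 with totals at Days 0, 4 and 6. Of the calls over time in WT, 63.2% (Day 4) and 61.6% (Day 6) were higher with TMM scaling and 86.4% and 84.1% with totals. In the mutant, these shares were 62.7% and 60.5% with TMM scaling and 89.1% and 83.6% with totals. Between genotypes at Day 6, 60.2% of the calls were higher in the mutant with TMM scaling and 41.7% with totals, and at Day 4 the shares were 45.8% and 35.7%. The spread between these libraries underlies the SE and SD values. Intervals given with ratios of pooled reads cover counting error only and leave that spread out. In bulk RNA, fewer cells of a type and less RNA per cell cannot be told apart.

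Of the 10 members, LOG1, LOG3, LOG7 and LOG8 had enough reads to pass the filter on low counts and enter the fit, and the other 6 did not. From Day 0 to Day 4, 3 of these 4 were past the limits in WT (LOG3 higher, LOG1 and LOG7 lower) beside 39.4% of all variants tested (24.9% higher and 14.5% lower), and 2 of 4 in the mutant (LOG1 and LOG7 lower) beside 32.7% (20.5% higher and 12.2% lower). From Day 0 to Day 6, 3 of 4 were past the limits in WT (LOG3 higher, LOG1 and LOG7 lower) beside 42.5% of all variants, and 1 of 4 in the mutant (LOG1 lower) beside 36.1%. Between genotypes, none of the 4 was past the limits at Day 0 beside 1.34% of all variants (1.28% higher and 0.0595% lower). At Day 4, 2 of 4 were (LOG1 higher and LOG3 lower in the mutant) beside 3.33%, and at Day 6, 3 of 4 were (LOG1 and LOG7 higher, LOG3 lower in the mutant) beside 10.1%. The change from Day 0 differed between genotypes past the limits for LOG1 and LOG3 at Day 4, beside 2.76% of all variants (0.805% higher and 1.95% lower), and for LOG3 and LOG7 at Day 6, beside 7.24% (3.28% higher and 3.96% lower). At an FDR below 0.05 with no limit on the fold, the 4 members passed in number 3, 4, 2 and 2 over time (WT to Days 4 and 6, mutant to Days 4 and 6), beside 85.1%, 86.4%, 81.8% and 82.4% of all variants. Between genotypes 2, 2 and 3 passed that rule at Days 0, 4 and 6, beside 16%, 39.7% and 59.1%, and for the differences in change 2 and 4 did, beside 23.6% and 39%. Libraries of the compared groups did not overlap for 84.8%, 87%, 82.2% and 82.7% of all tested variants over time, in that order. Nothing is read from these counts, because the genes were chosen on the same values.

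**Figure D2:**
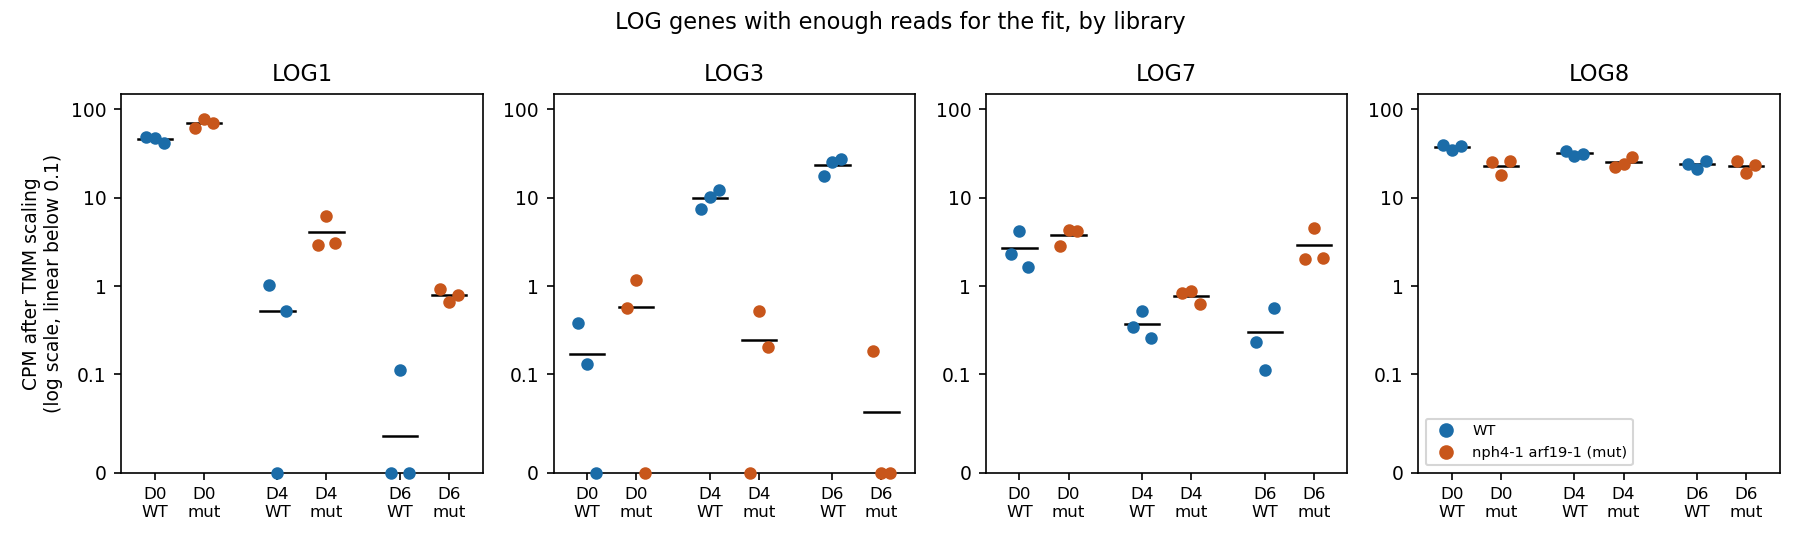
CPM after TMM scaling of LOG1, LOG3, LOG7 and LOG8 in each of the 18 libraries (points, 3 per group; bars, group means), on a log axis that is linear below 0.1 CPM, with D for Day and mut for nph4-1 arf19-1. LOG1 falls from Day 0 in both genotypes, LOG3 is high in cultured WT protoplasts alone, LOG7 is low in culture apart from the Day 6 mutant, and LOG8 stays between 17.8 and 38.9 CPM.

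LOG3 had reads in cultured WT protoplasts and next to none elsewhere. LOG3 (AT2G37210, chr2:15623928-15627032, minus strand) is, with LOG4 and LOG7, one of the LOG genes whose joint loss is known to impair the shoot meristem. In WT it had 2, 1 and 0 reads at Day 0, 64, 77 and 93 reads at Day 4, then 151, 226 and 292 reads at Day 6. The mutant had 3, 7 and 0 LOG3 reads at Day 0, 0, 3 and 1 at Day 4, then 1, 0 and 0 at Day 6. Every cultured WT library was thus above every mutant library of the same day, and the Day 0 libraries of the genotypes overlapped.

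In CPM, LOG3 stood at 9.83 ± 2.36 (SD, n = 3) at Day 4 and 23.3 ± 5.24 at Day 6 in WT. Over the 3 WT libraries pooled, the Day 6 level was 139.7 times that at Day 0, with a 95% counting interval of 47.6 to 679 since Day 0 rests on 3 reads. The WT level was 43.2 times the mutant level at Day 4 (16.7 to 159.8) and 397 times at Day 6 (71.0 to 15710), where the mutant rests on 1 read. The fitted differences between mutant and WT were -5.33 ± 0.55 (log2, SE) at Day 4 and -8.23 ± 0.60 at Day 6. They rested on few mutant reads: the Day 4 difference ran from -6.60 without mutant replicate 2 to -4.62 without replicate 1, and the Day 6 difference from -10.31 without replicate 1, which holds the single read, to -7.52 without replicate 2. Groups that do not overlap were common: 49.2% of all tested variants did not overlap between genotypes at Day 4 and 67.1% at Day 6. The second LOG3 splice variant shares most of its reads with the first (869 and 921 reads over all libraries).

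Of 3 phloem markers, SUC2 moved with LOG3. The summed CPM of 3 phloem markers, the sucrose transporter SUC2, the transcription factor APL and the sulfate transporter SULTR2;1, was 9.31 to 15.4 in WT at Day 4 and 25.1 to 29.2 at Day 6, against 1.52 to 2.82 and 2.36 to 3.43 in the mutant and 0.769 to 2.5 at Day 0 over both genotypes. SUC2 made up most of the sum in cultured WT, with 237 to 250 reads in each Day 6 WT library and 5 to 13 in each Day 6 mutant library. APL, the defining phloem identity gene of the list, had 0 reads in all WT libraries of Days 4 and 6 and in all Day 6 mutant libraries. SULTR2;1 overlapped between genotypes, at 0.458 to 2.37 CPM in WT and 1.03 to 2.29 in the mutant at Day 4 and at 1.6 to 1.85 and 0.786 to 2.04 at Day 6. Guard cell, epidermis and xylem markers were also summed. At Day 4 the guard cell sum was 5.04 to 8.42 CPM in WT and 2.99 to 3.92 in the mutant. At Day 6 the epidermis sum was 0.577 to 1.22 CPM in WT and 2.09 to 2.96 in the mutant. Otherwise these sums overlapped between genotypes at Days 4 and 6. The part of phloem or other cells in the LOG3 level was not tested.

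LOG4 had far fewer reads than LOG3 but was also highest in WT at Day 6. LOG4 (AT3G53450, chr3:19812977-19815666, minus strand) had 0 reads in each WT library at Day 0, 1, 3 and 2 reads at Day 4, then 14, 6 and 15 at Day 6. The mutant had 0, 0 and 1 LOG4 reads at Day 0, 0, 0 and 6 at Day 4, then 1, 1 and 2 at Day 6. The Day 6 libraries of the genotypes did not overlap, whereas those of Day 4 did, through the single mutant library with 6 reads. At Day 6, 67.1% of all tested variants did not overlap between genotypes. Pooled over libraries, the WT level at Day 6 was at least 7.31-fold higher than at Day 0, taking 3 reads over the group as the limit for none. At Day 6 it was 5.19 times the mutant level (95% counting interval 1.86 to 20.1). LOG4 did not pass the filter on low counts, and its locus overlaps a long non-coding RNA annotated on the opposite strand, AT3G08340. Whether counting used the strand is not given in the sources used here, so reads of the pair cannot be told apart.

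LHW and TMO5 are transcription factors that together switch on LOG3 and LOG4 in the root vascular tissue, and their levels are given for that reason, chosen after the values were seen. LHW stood at 34.1 CPM in WT against 16.8 in the mutant at Day 4, then at 48.6 against 16.6 at Day 6. The differences of -1.04 ± 0.16 and -1.55 ± 0.16 (log2, SE; edgeR FDR 3.48e-05 and 6.16e-08) missed the fold limit. LHW was past the limits from Day 0 to Day 6 in both genotypes, higher by 3.57 ± 0.19 in WT and 2.39 ± 0.23 in the mutant (FDR 3.9e-13 and 4.71e-09). TMO5 stood at 6.15 CPM in WT and 6.30 in the mutant at Day 6, a difference of 0.05 ± 0.24 (FDR 0.866), and its homolog T5L1 had too few reads to be tested.

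LOG1 was abundant in fresh protoplasts and nearly gone in culture. LOG1 (AT2G28305, chr2:12081023-12084678, plus strand) had 253, 361 and 203 reads in WT at Day 0, then 9, 0 and 4 at Day 4 and 0, 1 and 0 at Day 6. In the mutant it had 325, 469 and 317 reads at Day 0, 21, 35 and 15 at Day 4, then 5, 5 and 3 at Day 6. The mutant libraries lay above the WT libraries on each of the 3 days. Of all tested variants, 31.6%, 49.2% and 67.1% did not overlap between genotypes at Days 0, 4 and 6.

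From Day 0 to Day 6 LOG1 decreased from 45.8 ± 3.96 CPM (SD, n = 3) to 1 read over the 3 WT libraries, a 1304-fold lower level with a counting interval of 233 to 51560. In the mutant it decreased from 69.2 ± 8.66 to 0.790 ± 0.134 CPM, a level 90.0-fold lower (52.4 to 169.5). The fitted changes from Day 0 to Day 4 were -6.36 ± 0.33 in WT and -4.10 ± 0.25 in the mutant, and with library totals alone they were -5.34 and -3.09. The WT change was -7.36 without Day 4 replicate 1, which holds 9 of the 13 reads. The mutant level was 1.51 times that of WT at Day 0 (1.38 to 1.66), 7.40 times at Day 4 (4.06 to 14.6) and 21.9 times at Day 6 (3.29 to 931), where WT rests on 1 read. The change from Day 0 to Day 6 in the mutant less that in WT was 3.28 ± 1.11 and missed the limits, while that to Day 4 was 2.26 ± 0.52. The summed mesophyll markers given above also decreased from Day 0, and their part in the LOG1 level was not tested.

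LOG7 fell in culture in both genotypes and was back near its Day 0 level in the Day 6 mutant. LOG7 (AT5G06300, chr5:1921548-1925407, minus strand) had 12, 32 and 8 reads in WT at Day 0, 3, 4 and 2 at Day 4, then 2, 1 and 6 at Day 6. In the mutant it had 15, 26 and 19 reads at Day 0, 6, 5 and 3 at Day 4, then 11, 34 and 8 at Day 6. The Day 6 mutant libraries lay above all Day 6 WT libraries and overlapped with the Day 0 mutant libraries. Of all tested variants, 67.1% did not overlap between genotypes at Day 6.

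LOG7 stood at 2.71 ± 1.33 CPM (SD, n = 3) at Day 0, 0.376 ± 0.137 at Day 4 and 0.302 ± 0.235 at Day 6 in WT. In the mutant the levels were 3.75 ± 0.830, 0.776 ± 0.139 and 2.87 ± 1.40. At Day 6 the pooled mutant level was 9.92 times that of WT (4.85 to 22.9), with a fitted difference of 3.20 ± 0.51 (log2, SE), or 4.02 without Day 6 WT replicate 3. The changes from Day 0 were -2.87 in WT and -2.23 in the mutant at Day 4 and -3.10 in WT at Day 6, and with library totals alone they came to -1.85, -1.22 and -1.95, within the fold limit. The WT change to Day 6 was -3.92 without Day 6 replicate 3. The mutant change from Day 0 to Day 6, -0.30 with TMM scaling, was 0.60 with totals, so that its direction depended on the scaling. Without Day 6 mutant replicate 2, which holds 34 of the reads, the difference between genotypes in the change from Day 0 was 2.24 rather than 2.80 and no longer past the limits, as was also the case without Day 0 WT replicate 2.

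LOG8 was present in every library and varied least. LOG8 (AT5G11950, chr5:3854388-3857243, plus strand) had 202, 263 and 186 reads in WT at Day 0, 292, 227 and 241 at Day 4, then 210, 190 and 276 at Day 6. In the mutant it had 134, 107 and 119 reads at Day 0, 162, 136 and 141 at Day 4, then 141, 142 and 89 at Day 6. In CPM the WT means were 37.1 ± 2.26 (SD, n = 3), 31.5 ± 1.82 and 23.8 ± 2.44, and the mutant means 22.9 ± 4.44, 25.1 ± 3.51 and 22.7 ± 3.73, in the order of the days. The mutant libraries lay below the WT libraries at Days 0 and 4, by -0.70 ± 0.15 and -0.33 (log2), and overlapped with them at Day 6, where the difference was -0.08. Of all tested variants, 31.6% and 49.2% did not overlap between genotypes at Days 0 and 4. Whether LOG8 rose or fell with time depended on the scaling: in WT its change from Day 0 was -0.23 at Day 4 and -0.64 at Day 6 with TMM scaling, but 0.80 and 0.53 with library totals, and in the mutant 0.13 and -0.02 against 1.15 and 0.89.

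LOG2, LOG5 and the IPT members were at the edge of detection in all 6 groups. LOG2 (AT2G35990) had at most 3 reads in any library, 5 reads over the 3 Day 6 mutant libraries, and none at Days 0 and 4 in either genotype. LOG5 (AT4G35190) had at most 2 reads in any library and 10 over all 18. IPT3 (AT3G63110), known as the nitrate-responsive IPT gene, had at most 1 read in any library and 3 in all. IPT5 (AT5G19040) and IPT7 (AT3G23630), which like IPT3 encode enzymes that act on ATP or ADP, had at most 3 reads in any library and 16 and 12 in all. No difference between groups was detectable for these 5 genes at this depth, at which 3 reads correspond to between 0.248 and 0.872 CPM of the mapped total.

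**Figure D3:**
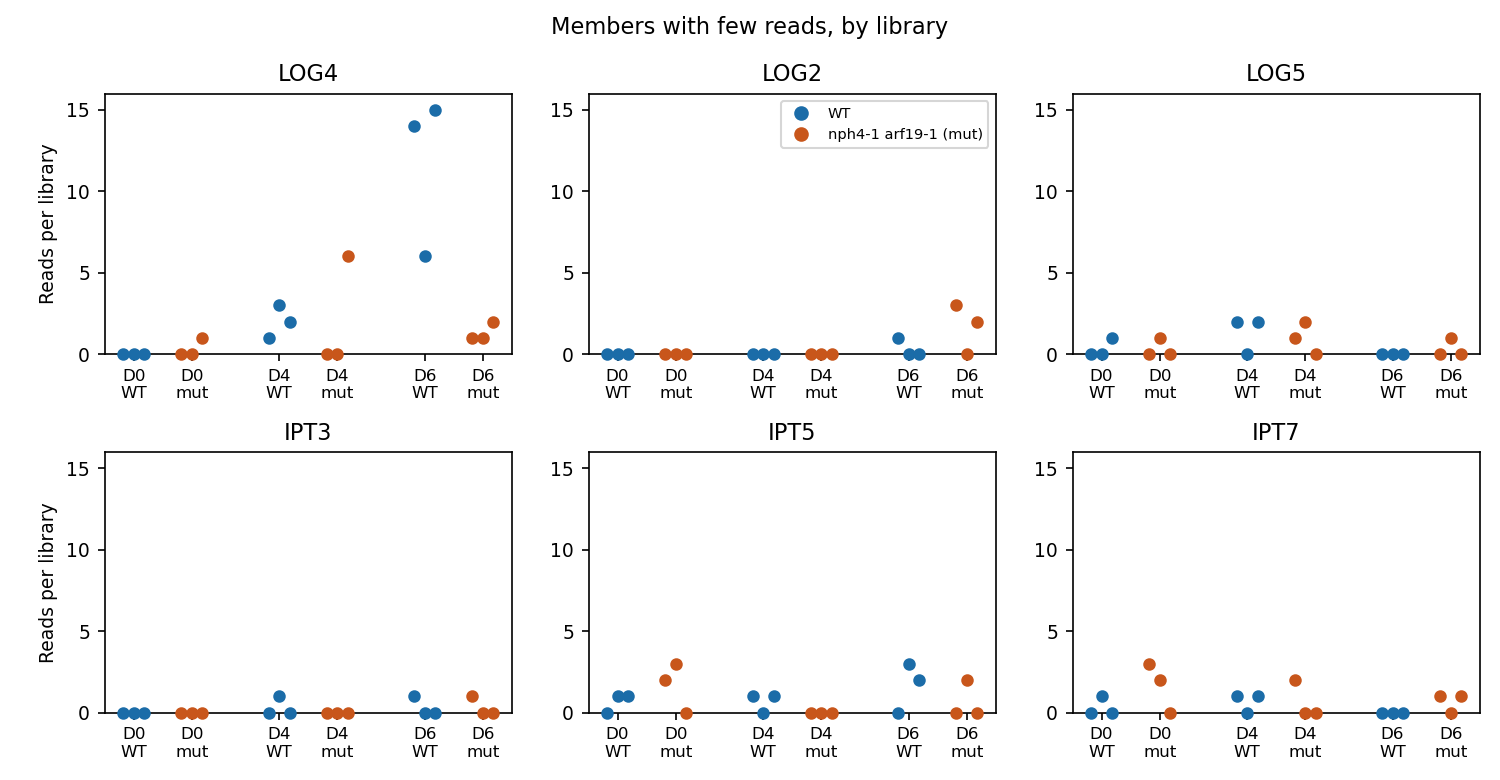
Reads per library of the 6 members that did not pass the filter on low counts, with 3 libraries per group (D, Day; mut, nph4-1 arf19-1). LOG4 reaches 6 to 15 reads in the Day 6 WT libraries; the other 5 genes stay at or below 3 reads in every library.

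Set on one scale per transcript length, the LOG gene with the most RNA was LOG1 at Day 0 and LOG8 at Day 4 in both genotypes, and at Day 6 LOG8 in the mutant and LOG8 and LOG3 alike in WT. Levels in CPM per kb of the lowest-numbered transcript were 38.9 ± 3.36 (SD, n = 3) for LOG1 and 31.2 ± 1.91 for LOG8 in WT at Day 0, with no overlap, and LOG7 followed at 2.12 ± 1.04. In the Day 0 mutant LOG1 led LOG8 by 58.9 ± 7.37 to 19.3 ± 3.74. At Day 4 LOG8 led in both genotypes, at 26.5 ± 1.53 in WT before LOG3 at 8.39 ± 2.01, and at 21.2 ± 2.95 in the mutant before LOG1 at 3.45 ± 1.56. At Day 6 LOG8 and LOG3 overlapped in WT, at 20.02 ± 2.05 and 19.92 ± 4.47, and LOG4 followed at 1.39 ± 0.564. In the Day 6 mutant LOG8 stood at 19.1 ± 3.15, LOG7 at 2.25 ± 1.09 and LOG1 at 0.672 ± 0.114, with no overlap between them, while LOG2 and LOG4 reached up to 0.627 and 0.592 and overlapped with LOG1.

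The summed LOG level per length was 72.4 ± 3.97 CPM per kb in WT and 81.7 ± 5.57 in the mutant at Day 0, 36.0 ± 1.49 and 26.0 ± 3.63 at Day 4, then 41.6 ± 5.09 and 22.9 ± 2.67 at Day 6. LOG1 made up 51.3% to 55.4% of it in the Day 0 WT libraries and 68.5% to 77.3% in the Day 0 mutant libraries. LOG3 made up 39.8% to 53.4% in the Day 6 WT libraries and at most 0.623% in the Day 6 mutant libraries. LOG8 made up 44.3% to 54.5% of the sum in the Day 6 WT libraries and 78.6% to 86.7% in the Day 6 mutant libraries, at levels per length that overlapped between them.

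**Figure D4:**
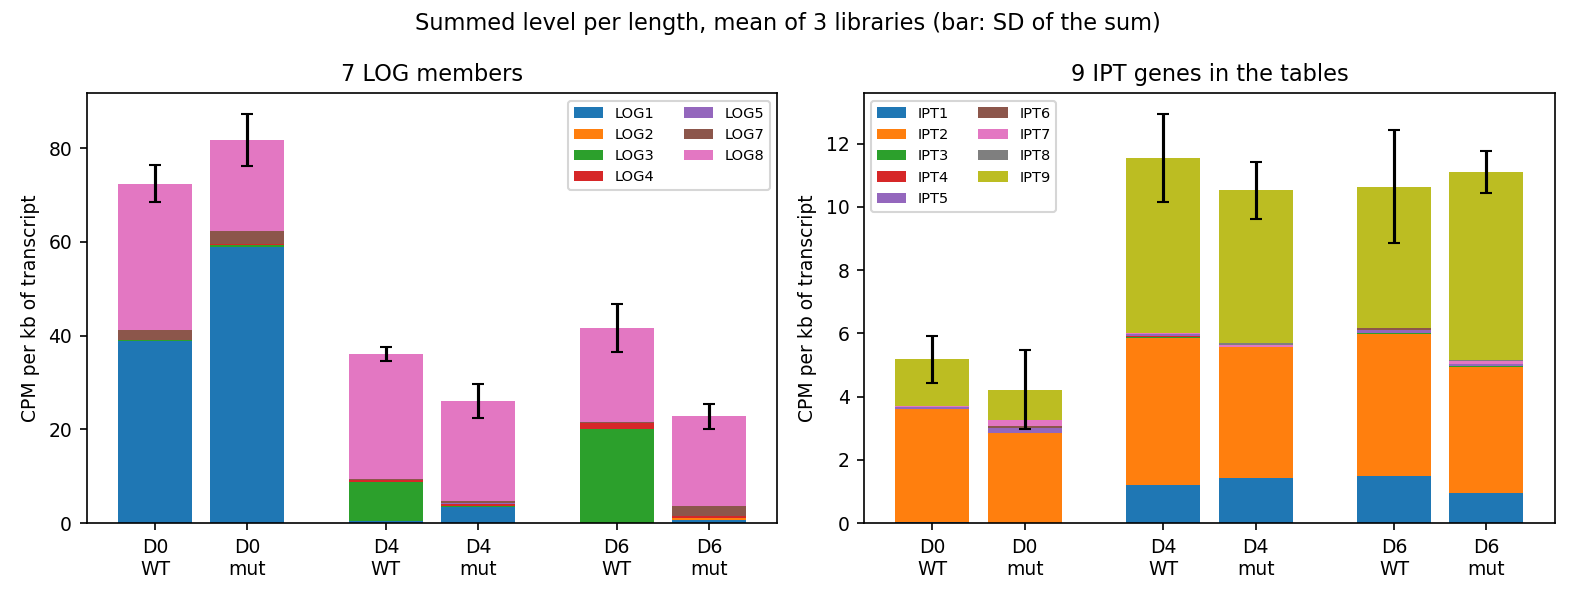
Mean level per length in CPM per kb of transcript, summed over the 7 LOG members (left) and over the 9 IPT genes in the tables (right), with bars starting at 0, colours for genes, error bars for the SD of the sum over 3 libraries, and D for Day and mut for nph4-1 arf19-1. LOG1 fills most of the Day 0 bars and LOG3 about as much as LOG8 of the Day 6 WT bar; IPT2 and IPT9 fill most of every IPT bar.

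The remaining family genes show which IPT genes did have reads. IPT2 and IPT9 encode the enzymes that modify tRNA and are a source of cis-zeatin, and they held most of the summed IPT level in each group. IPT2 had 26, 54 and 29 reads in WT at Day 0 and 48, 78 and 88 at Day 6, and 32, 20 and 23 then 36, 51 and 25 in the mutant. IPT9 had 13, 19 and 15 reads in WT at Day 0 and 59, 78 and 95 at Day 6, and 13, 10 and 5 then 51, 95 and 40 in the mutant. Per length, the mutant IPT9 libraries lay below the WT libraries at Day 0, at 0.598 to 1.335 against 1.37 to 1.675 CPM per kb. At Day 6 the mutant IPT9 libraries lay above, at 5.19 to 6.88 against 3.74 to 4.90 CPM per kb. IPT1, a further adenylate IPT, had 1 read over the 3 WT libraries and none over the 3 mutant libraries at Day 0. At Day 4 it had 20, 17 and 13 reads in WT and 17, 15 and 12 in the mutant, and in CPM the mutant libraries lay above the WT libraries, at 2.35 to 2.64 against 1.68 to 2.29. At Day 6 it had 22, 21 and 31 reads in WT and 12, 9 and 6 in the mutant, and the mutant libraries lay below, at 1.19 to 2.22 against 2.33 to 2.91 CPM. Such separation was common, at 31.6%, 49.2% and 67.1% of all tested variants at Days 0, 4 and 6. LOG6, IPT4, IPT6 and IPT8 had at most 2 reads in any library, and LOG9 had no entry in the count tables.

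Around synthesis, the other cytokinin genes changed in number with culture. Of a list of 49 genes for cytokinin hydroxylation, breakdown, conjugation, salvage, transport, reception and response and for regulators of LOG3 and LOG4, 46 were in the tables and 36 were tested. From Day 0 to Day 6, 14 of the 36 were past the limits upward and 6 downward in WT, beside 26.1% and 16.3% of all variants, and 19 upward and 6 downward in the mutant, beside 21.8% and 14.2%. The median change of the 36 was 1.43 (log2) in WT and 2.04 in the mutant, against 0.23 and 0.20 for all variants. Between genotypes none of the 36 was past the limits at Day 0 in edgeR, beside 1.34% of all variants. There 9 had an edgeR FDR below 0.05, beside 16% of all variants. An unadjusted edgeR p below 0.05 was reached by 13, for which the share of all variants was not counted. DESeq2 placed 1 gene (CKX3) past the limits at Day 0. At Day 4, 2 were higher and 1 lower in the mutant, beside 1.52% and 1.8% of all variants, and at Day 6, 3 were higher and 1 lower, beside 6.06% and 4.01%.

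Of these 36 genes, the largest differences between genotypes at Day 6 were in CKX genes, whose products degrade cytokinin: of 7 tested, 2 were past the limits upward and 1 downward in the mutant. CKX3 had 0 reads in all WT libraries at Day 0 and stood at 149 to 185 CPM in WT at Day 6, at least 987-fold higher, against 0 to 1.19 CPM in the Day 6 mutant. The mutant difference was -5.96 ± 0.27 at Day 4 (edgeR FDR 5.54e-11) and -7.62 ± 0.28 at Day 6 (FDR 5.39e-13). CKX2 ran the other way at 17.8 to 30.9 CPM in the Day 6 mutant and 0.333 to 0.845 in WT, a difference of 5.00 ± 0.35 (FDR 3.78e-10) after 2.48 ± 0.33 at Day 4 (FDR 7.35e-06). CKX4 stood at 102 to 143 CPM in the Day 6 mutant and 1.89 to 5.54 in WT, a difference of 4.92 ± 0.36 (FDR 5.88e-10) after 2.07 ± 0.30 at Day 4 (FDR 1.81e-05), and the Day 4 call was lost with library totals. The cytosolic oxidase CKX7 decreased from Day 0 to Day 6 in both genotypes, with a change of -5.71 ± 0.28 in WT and -7.14 ± 0.31 in the mutant (FDR 1.07e-13 and 3.11e-14).

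Among receptors and response genes, AHK4 and ARR15 rose in both genotypes. The receptor AHK4 had 3 reads over the WT libraries at Day 0 and stood at 26.6 CPM at Day 6, a level 158.1 times as high (95% counting interval 53.9 to 769, FDR 5.69e-13). In the mutant it had 1 read over the libraries at Day 0 and 31.3 CPM at Day 6, 491 times as high (87.7 to 19430, FDR 5.92e-13). The type-A response gene ARR15 had no read at Day 0 in either genotype and was at least 27.6-fold higher in WT and 44.0-fold higher in the mutant at Day 6. ARR6, also type A, was 13.6 times as high at Day 6 as at Day 0 in WT (8.25 to 24.0) and 160.5 times in the mutant (54.6 to 781), where Day 0 rests on 3 reads, and the fitted change was larger in the mutant by 3.46 ± 0.73 (FDR 8.83e-04). The type-B factor ARR2 decreased from 55.9 to 3.85 CPM in WT, a change of -3.86 ± 0.14 (FDR 1.37e-15), and from 64.7 to 16.3 CPM in the mutant, just past the fold limit (FDR 6.34e-12). At Day 6 it was higher in the mutant by 2.07 ± 0.15 (FDR 7.03e-10), a call that was lost with library totals, as was its change in the mutant. The zeatin O-glucosyltransferase UGT85A1 also decreased in both, with a change of -5.35 ± 0.17 in WT and -3.94 ± 0.16 in the mutant (FDR 3.45e-16 and 1.43e-14). The nucleoside transporter ENT3 decreased with a change of -3.90 ± 0.22 in the mutant (FDR 2.15e-12) and -3.44 ± 0.23 in WT (FDR 1.5e-11).

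**Figure D5:**
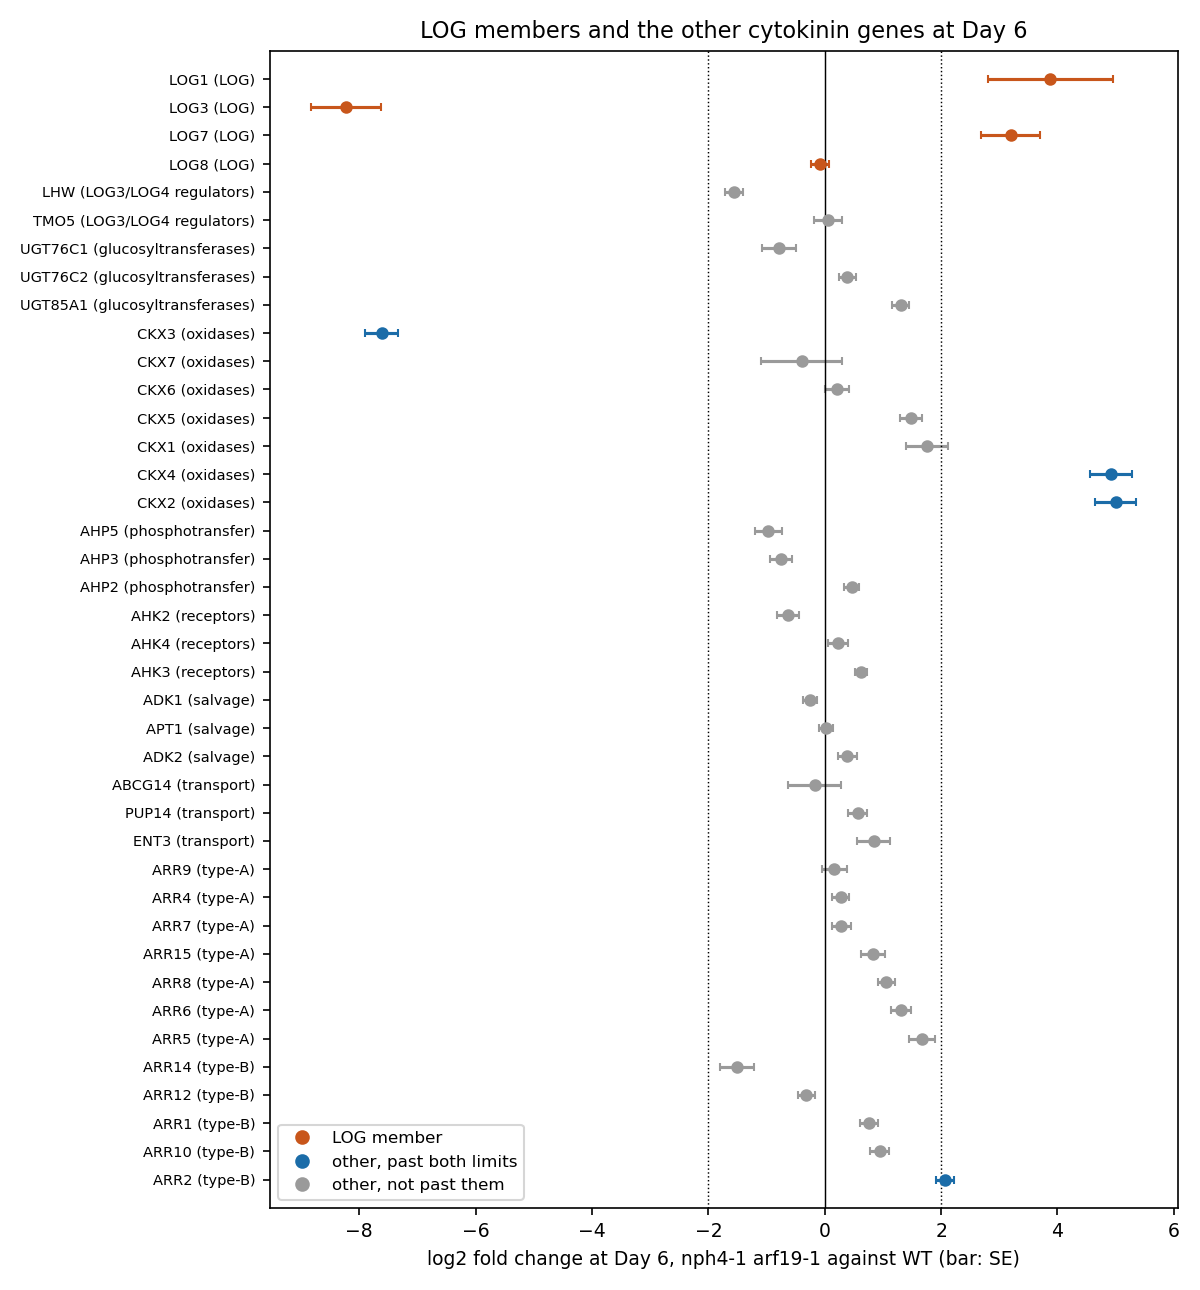
Log2 fold changes between nph4-1 arf19-1 and WT at Day 6 (points; bars, SE) for the 4 LOG members in the fit (orange, described without a test) and the 36 other cytokinin genes tested (blue where past both limits), with dotted lines at a log2 fold change of 2 in either direction. LOG3 and CKX3 lie far below zero, LOG1, LOG7, CKX2 and CKX4 above 2, and LOG8 near zero.

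Genes with a profile like that of LOG1, the LOG gene in the fit with the largest spread between group means (7.71 on the log2 CPM scale), were sought among 18139 genes by Pearson's correlation of log2 CPM over the 18 libraries, which share their groups and so give high values readily. The 3 most alike were the transcription factor gene WRKY15 (AT2G23320, r = 0.994), AT4G18950 (r = 0.992) and AT5G05190 (r = 0.992). WRKY15 stood at 909 CPM in WT and 994 in the mutant at Day 0 and at 83.7 and 167 at Day 6. No IPT member had enough reads for such a search. For LOG3, searched after its values were seen, the 3 most alike were AT4G30410 (r = 0.970), the auxin-response repressor gene IAA19 (r = 0.969) and the thioredoxin gene ACHT5 (r = 0.964). IAA19 stood at 161 CPM in WT and 5.21 in the mutant at Day 6.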

How the data were processed

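RNA-seq libraries (Kapa stranded mRNA kit, single-end NextSeq500) were made from 3 biological replicates per group. The authors mapped reads with Bowtie 0.12.9 to TAIR10, kept unique reads and deposited raw counts per splice variant; the counting tool is not given in the sources used here. A read can count for several variants of a gene, so the authors' mapped total was used as library size. Counts were fitted with edgeR 4.0.16 (filterByExpr, TMM, quasi-likelihood, 6 group means, 25202 variants, common biological coefficient of variation 0.127). On simulated data for this fit, 100% of 200 variants changed by 3 (log2), of 24037 in all, were recovered with 0 false calls. Recovery of smaller changes was not tested. The changed variants were drawn only from those above the levels of LOG7, and all variants were simulated with a common spread. Recovery at read counts as low as those of LOG7, and of LOG3 in the mutant, was thus not tested. The members and gene lists were chosen with earlier results of these data known. Other cytokinin genes were named where among the 3 largest changes in each direction past the limits from Day 0 to Day 6, between genotypes or in their interaction. Ratios of pooled reads carry exact 95% binomial intervals, which cover counting error only. Alternatives were library totals, DESeq2 1.42.0, no filter, 1 variant per gene, compared libraries only, FDR alone, a replicate block and each library left out. Positions and sequences come from RefSeq TAIR10.1, whose coordinates serve for the TAIR10 nuclear genome; identities were computed with MAFFT 7.526.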

Additional observations from a re-analysis of the deposited data

Results flagged for a closer look

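These 4 results of the list of other cytokinin genes were picked out because the change from Day 0 differed between genotypes in edgeR's test of the difference. The LOG and IPT members are left out of this, because their own counts chose them. The CKX3 change in the mutant less that in WT was -11.07 (log2) at Day 4 and -12.73 at Day 6 (edgeR FDR 2.66e-05 and 1.46e-06). The size of both rests on the 0 reads of CKX3 in WT at Day 0 and is no bound. The CKX4 change differed by 4.06 at Day 6 (FDR 4.98e-06) and the ARR6 change by 3.46 (FDR 8.83e-04).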

How the results depend on the processing

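Counts of members are given as a description, since their own values chose them. With library totals, 1 rather than 2 members passed from Day 0 to Day 4 in the mutant, and 2 rather than 3 from Day 0 to Days 4 and 6 in WT, with LOG7 lost each time. For the difference in change to Day 4, members passing were 1 rather than 2 with the compared libraries alone (LOG1 lost), and ranged from 1 to 2 with one library left out, LOG3 being lost without Day 0 mutant replicate 2 and LOG1 without Day 4 WT replicate 2, Day 4 WT replicate 3 or Day 4 mutant replicate 2. To Day 6 they ranged from 1 to 2, LOG7 being lost without Day 0 WT replicate 2 or Day 6 mutant replicate 2. With FDR below 0.05 alone, 2 members passed from Day 0 to Day 6 in the mutant, 2 between genotypes at Day 0 and 4 for the difference in change to Day 6. Of the 36 other cytokinin genes tested, 36 passed that rule for WT Day 6 and 32 for mutant Day 4, beside 86.4% and 81.8% of all variants. Between genotypes 9, 18 and 24 passed it at Days 0, 4 and 6, beside 16%, 39.7% and 59.1%. For the differences in change to Days 4 and 6, 11 and 17 did, beside 23.6% and 39%. DESeq2 called 1 other gene (CKX3) between genotypes at Day 0. For the difference in change to Day 4, 2 other genes passed rather than 1 with no filter (CKX3 and ARR6), and 1 to 2 with one library left out: ARR6 was added without Day 0 WT replicate 1, and CKX1 without Day 0 WT replicate 2 or Day 4 mutant replicate 2. Samples were not treated as paired by replicate number. For same-numbered libraries of WT and mutant, deviations correlated at -0.07 to 0.08 at Day 0, -0.03 to 0.27 at Day 4 and 0.05 to 0.13 at Day 6. Libraries of different number were not compared, so whether same-numbered libraries shared a preparation was not tested. With a replicate block, 2541 rather than 2536 variants passed between genotypes at Day 6, and the counts of members and other genes past the limits stayed the same. Of the members' fold changes under alternatives, 62 moved by more than the replicate spread and 411 did not, and none that was past the limits changed sign. Ratios that rest on a few reads in one group have the wide counting intervals given beside them.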
